A study of Homo sapiens with 6 samples.

Results

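Splicing factors of the SR and hnRNP families and their close partners were examined in cells labelled Hep3B, a line derived from a human hepatocellular carcinoma, after lowering of the long noncoding RNA SNHG17. The set was taken from the gene symbols of the count table: the serine/arginine-rich genes named SRSF with a number, the genes named HNRNP, and TRA2A, TRA2B, PTBP1, PTBP2, PTBP3, ESRP1, ESRP2, RBFOX2, MBNL1, MBNL2, QKI, U2AF1 and U2AF2. The symbols matched 78 rows, of which 29 pseudogenes were left out, so that 49 of the 58243 genes of the table were members. They comprised 12 SR genes, 24 hnRNP genes, 2 TRA2, 3 PTBP, 2 U2AF, 2 MBNL and 2 ESRP genes, and QKI and RBFOX2. Cells were transfected either with si-SNHG17-1, a small interfering RNA against SNHG17, or with the control si-NC, and total RNA was sequenced. Each group had 3 libraries, and the line was grown in DMEM with serum in both. A single siRNA against SNHG17 was used. Nothing in the labels ties a replicate to a culture of its own, and the p-values therefore describe variation among these 6 libraries that may be only technical.

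SR proteins carry RNA recognition motifs and a domain rich in arginine and serine, bind mostly to exonic enhancers and help recruit the splicing machinery to neighbouring splice sites. The hnRNP proteins coat nascent transcripts, and many of them block the use of a splice site or exon when bound near it, although the same protein can also promote inclusion, depending on position. Many genes of both families limit their own level by including an exon, or by splicing in the 3′ UTR, in a way that sends the transcript to nonsense-mediated decay. The table holds 1 count per gene, so it shows gene levels and not which exons were used.

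Total counts ranged from 30207055 to 42271168 per library, and the correlation of log2 CPM (counts scaled to a common library size) between libraries was 0.966 to 0.973 inside a group and 0.953 to 0.965 across groups. SNHG17 stood at 843, 953 and 948 counts in si-NC and at 307, 338 and 254 after si-SNHG17-1, a log2 fold change of -1.51 ± 0.12 (SE, edgeR adjusted p = 0.00101). Of 9 hepatocyte and liver cancer markers, 8 stayed under 1 CPM in every library, with AFP at 0.216 CPM or less and TTR and GPC3 at 0, while KRT8 reached 517 to 615 CPM and VIM 653 to 1020 CPM. The cells are therefore called by their label only. The summed level of the hepatocyte markers was 2.06 to 2.98 CPM in si-NC and 3.18 to 4.42 CPM in si-SNHG17-1. That of the epithelial markers was 832 to 944 and 740 to 755 CPM, and 3 of these 5 genes were under 1 CPM throughout. The mesenchymal sum was 760 to 1130 and 934 to 1040 CPM, most of it VIM, with COL1A1 at 79.4 to 118 CPM and COL1A2 at 0. The immune and endothelial sum was 34.3 to 39.0 and 42.8 to 61.8 CPM, nearly all of it CD68, with PTPRC at 0.397 CPM or less. The part of these differences in the results below was not tested. In such bulk RNA, fewer cells of a type and less RNA per cell cannot be told apart.

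Most changes in the splicing factor genes were small. Of the 44 members with enough counts to be tested, 2 rose and 4 fell after si-SNHG17-1 (edgeR quasi-likelihood test, adjusted p under 0.05). That is 4.55% higher and 9.09% lower, against 5.25% higher and 5.21% lower of all 18679 genes tested, and 13.6% against 10.5% in either direction, so the share of called members was near that of all genes. Of the 6 calls, 5 were in hnRNP genes and 1 in a PTBP gene. The median log2 fold change was -0.07 for the members and -0.00 for all genes tested. The median absolute value was 0.18 for the members and 0.28 for all genes. For 37 of the 44 members the log2 fold change lay within 0.4 of 0. The members were abundant, with a median of 197 CPM in si-NC against 16.4 CPM for all genes tested, and their standard errors were smaller, with a median of 0.10 against 0.19. The fold changes of members and of all genes were thus not compared at matched abundance.

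**Figure D1:**
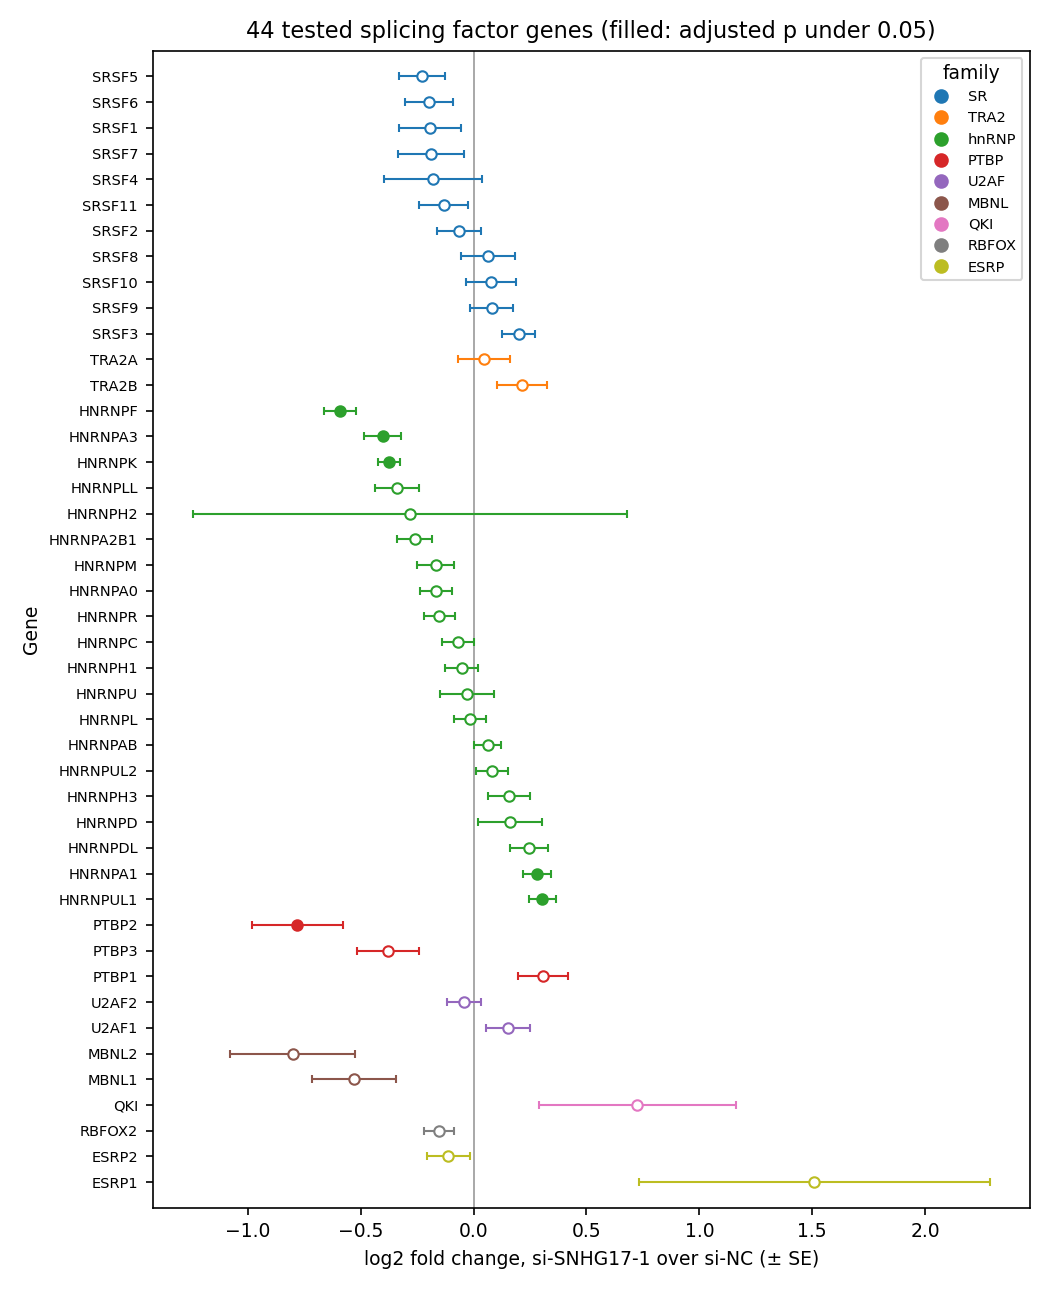
Log2 fold change of si-SNHG17-1 over si-NC (horizontal axis) with its standard error for each of the 44 tested splicing factor genes (vertical axis), coloured by family and filled where the edgeR adjusted p was under 0.05. The 6 filled points are HNRNPF, HNRNPA3, HNRNPK, HNRNPA1, HNRNPUL1 and PTBP2, and the 11 SR genes lie between -0.23 and 0.20.

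Members outside the test were outside it in both groups. SRSF12, an SR gene, had 2 counts in 1 si-SNHG17-1 library and 0 in the other 5. HNRNPCL1, HNRNPCL2, HNRNPCL3 and HNRNPCL4, relatives of HNRNPC, had no count in any of the 6 libraries. A floor of 3 counts puts their level at no more than 0.0977 CPM in the shallowest one, counting error alone considered.

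HNRNPF had the firmest fall. It encodes a protein that binds runs of guanines through domains known as quasi-RNA recognition motifs. Its levels were 448, 499 and 504 CPM in the si-NC libraries and 326, 329.8 and 307 CPM in the si-SNHG17-1 libraries. The 3 treated libraries lay close together and all were under the lowest control. HNRNPF (ENSG00000169813.16, chromosome 10, 43385617 to 43409166, minus strand of GRCh38) thus went from 484 ± 31.1 to 320.8 ± 12.3 CPM (SD, n = 3 each), 1.51-fold lower, with a log2 fold change of -0.59 ± 0.07 (SE, edgeR adjusted p = 0.00422). Refits that omitted 1 library at a time kept the call 6 of 6 times. Its relatives HNRNPH1, HNRNPH2 and HNRNPH3, which share the same type of RNA-binding domain, were not called.

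The 3′ UTR of HNRNPF holds the 8-base word TTCAATCA. The word was not chosen independently: it was taken from earlier results of these data, which had named it in genes that fell, so its shares by direction are a description and support nothing. It was found in the longest 3′ UTR of 8.3% of the genes called lower, 1.93% of those called higher and 2.85% of all genes tested that have such a UTR, with median UTR lengths of 1150, 1719 and 1312 bases. Among the 44 tested members it stood in 3, or 6.82%, namely HNRNPF, SRSF1 and SRSF8, and the median UTR of these 44 was longer, at 2123 bases. The sites are shown to set the fallen gene beside the other 2, which were not called, with the word in capitals, read 5′ to 3′ on the transcript from GENCODE release 29.
HNRNPF, chr10:43386598-43386621, minus strand: ttgagttacTTCAATCAttttcac
SRSF1, chr17:58004972-58004995, minus strand: ggagcacatTTCAATCAttttagg
SRSF8, chr11:95069488-95069511, plus strand: atttattctTTCAATCAtatggat
In HNRNPF and SRSF1 the word is followed by the same 4 bases. The log2 fold change was -0.59 for HNRNPF, -0.19 ± 0.14 for SRSF1 (edgeR adjusted p = 0.43) and 0.06 ± 0.12 for SRSF8 (0.787). The shorter core TCAATC was present in 9 of the 44 tested members, or 20.5%. Among tested genes that have such a UTR, it was in 19.4% of all, 30.5% of those called lower and 15.6% of those called higher. Of the 4 members called lower 2 held it, HNRNPF and PTBP2, whose longest 3′ UTR has 10333 bases, and of the 2 called higher none did. The core is part of the word, so these shares are a description too. The search read the transcript strand only. The sequence of si-SNHG17-1 is not given in the sources used here.

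HNRNPK fell with the smallest spread. It encodes a poly(C)-binding protein with KH domains, and in si-NC it was the most abundant member by CPM, which does not correct for gene length. Its levels were 1047, 1069 and 1049 CPM in si-NC and 832, 816 and 794 CPM in si-SNHG17-1, with a wide gap between the groups. The means were 1055 ± 12.4 and 814 ± 19.3 CPM (SD, n = 3 each), 1.30-fold lower, and the log2 fold change was -0.37 ± 0.05 (SE, edgeR adjusted p = 0.00553). HNRNPK (ENSG00000165119.20, chromosome 9, 83968083 to 83980616) shares 309 exonic bases with the antisense gene AL354733.3, which had 484 counts over all 6 libraries. This call also held whichever library was left out.

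HNRNPA3 fell as well, while HNRNPA1 rose. Both encode members of the A/B group, which bind UAG-containing motifs and of which HNRNPA1 is best known as a repressor of exons. HNRNPA3 (ENSG00000170144.20) was at 256, 306 and 276 CPM in si-NC and at 209, 209 and 216 CPM in si-SNHG17-1. The groups did not overlap, and the treated libraries were the tighter ones. Its log2 fold change was -0.40 ± 0.08 (SE, edgeR adjusted p = 0.0222). HNRNPA1 (ENSG00000135486.17) was at 699, 635 and 623 CPM in si-NC and at 795, 783 and 799.6 CPM in si-SNHG17-1. All treated libraries were above the highest control, si-NC replicate 1. Its log2 fold change was 0.28 ± 0.06 (SE, edgeR adjusted p = 0.0313).

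HNRNPUL1, which encodes a relative of the scaffold protein HNRNPU, was the other member that rose. It was at 481, 452 and 475 CPM in si-NC and at 565, 605 and 569.6 CPM in si-SNHG17-1. The groups were apart by more than the spread within either. The log2 fold change was 0.30 ± 0.06 (SE, edgeR adjusted p = 0.0217), for a 1.23-fold higher level. HNRNPUL1 shares 215 exonic bases with TGFB1 on the opposite strand, whose own log2 fold change was 0.21 ± 0.07 (edgeR adjusted p = 0.0988).

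Calls for HNRNPA3, HNRNPA1 and HNRNPUL1 were lost in 5 of the 6 refits that omitted 1 library. They held only without si-NC replicate 1, and the adjusted p reached 0.108, 0.0983 and 0.0735, each without si-SNHG17-1 replicate 1 (edgeR). With no filter on low counts HNRNPA1 lost its call (edgeR adjusted p = 0.0563), and HNRNPUL1 kept it (0.0453). HNRNPA1 also has many near-identical copies in the genome. The 75 HNRNPA1 pseudogene rows of the table together held 2970, 2800 and 3264 counts in si-NC and 3635, 3976 and 3180 after si-SNHG17-1. That is 12.0% of the counts of HNRNPA1. These sums are not scaled for depth. The shallowest library was si-SNHG17-1 replicate 3, with 30207055 total counts, so its 3180 cannot be read directly against the other sums. How far reads of the gene and of its copies were mixed was not tested, so the counts of the gene are uncertain to an unknown extent. For HNRNPA3 the 16 pseudogene rows held 0.671% of the counts of the parent gene.

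**Figure D2:**
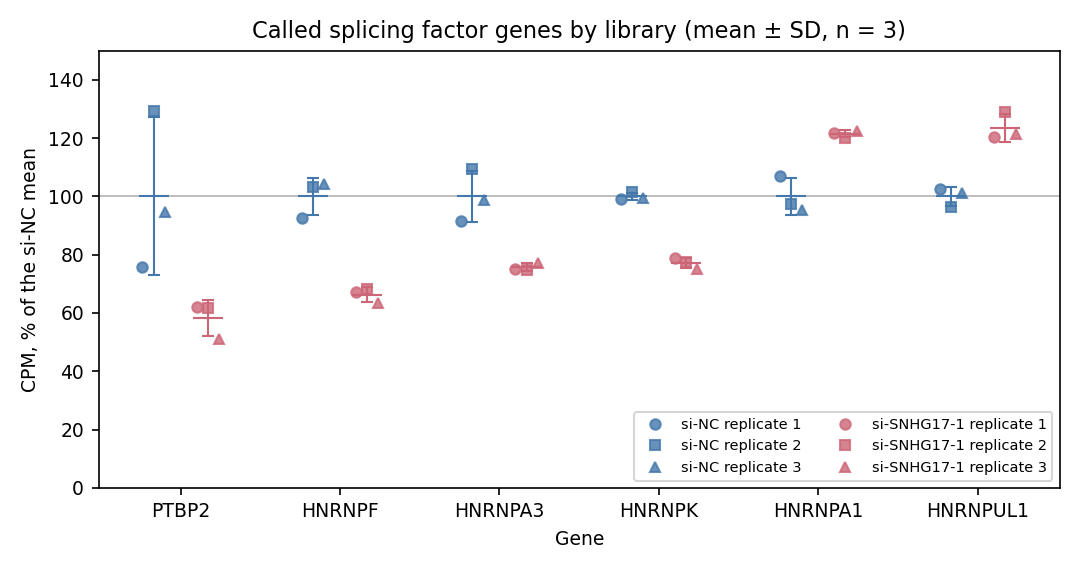
Level of the 6 called splicing factor genes in each library (vertical axis, CPM as a percentage of the si-NC mean of the gene), with the mean and SD of each group of 3 and a different marker for each replicate number. The si-SNHG17-1 libraries lie below all si-NC libraries for PTBP2, HNRNPF, HNRNPA3 and HNRNPK and above them for HNRNPA1 and HNRNPUL1.

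The other 15 tested hnRNP genes were not called. HNRNPA2B1, an A/B protein known for binding UAG motifs and for sorting RNA, was at 687, 630.1 and 585 CPM in si-NC and at 519.9, 507 and 561 CPM in si-SNHG17-1. The groups did not overlap, but the log2 fold change of -0.26 ± 0.08 (SE) gave an adjusted p of 0.0754 (edgeR). HNRNPLL, a regulator of alternative splicing best known in lymphocytes, likewise did not overlap between groups and had a log2 fold change of -0.34 ± 0.10 (edgeR adjusted p = 0.0699). HNRNPDL, a relative of HNRNPD, went from 210.0 ± 19.4 to 249 ± 8.42 CPM (0.25 ± 0.08 SE, edgeR adjusted p = 0.108). Values of HNRNPC, HNRNPH1, HNRNPU and HNRNPL, with log2 fold changes of -0.07, -0.05, -0.03 and -0.02 and standard errors of 0.07 to 0.12, were near 0, as was that of HNRNPAB at 0.06 ± 0.06. In all, 10 of the 20 tested hnRNP genes had groups that did not overlap, and 18 of the 44 members, against 33.7% of all genes tested.

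HNRNPH2 was set by a single library. It encodes a close relative of HNRNPH1 and was at 113, 118 and 107 CPM in si-NC and at 145, 129.5 and 2.80 CPM in si-SNHG17-1. The third treated library, with 86 counts, stood far below the other 5. The log2 fold change was -0.28 ± 0.96 with all libraries and 0.30 ± 0.10 without si-SNHG17-1 replicate 3 (edgeR adjusted p = 0.89 and 0.145). HNRNPH2 shares 362 exonic bases with the read-through gene RPL36A-HNRNPH2. The read-through gene had 497, 383 and 741 counts in si-NC and 320, 633 and 797 in the 3 si-SNHG17-1 libraries. No other tested member had a library under 0.2 of both other replicates of its group.

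Summed over the 24 hnRNP genes, the level was 7639 ± 229 CPM in si-NC and 7275 ± 43.6 CPM in si-SNHG17-1 (SD, n = 3 each). The groups did not overlap with TMM or median-of-ratios scaling, but they did with total counts, where the sums were 7526 ± 244 and 7372 ± 40.8 CPM. Without HNRNPK and HNRNPF the sums were 6100 ± 228 and 6140 ± 41.4 CPM and overlapped. Both omitted genes were called lower in these same data, while HNRNPA1 and HNRNPUL1, called higher, were kept. A smaller fall of the sum was therefore fixed by the choice. These sums are a description and were not tested.

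None of the 11 tested SR genes was called by edgeR, DESeq2 or limma-voom, while edgeR called 10.5% of all genes tested. An unadjusted p under 0.05 (edgeR) was found for 4997 of all 18679 genes tested and for 1 of the 11 SR genes. That gene was SRSF3, whose protein also takes part in mRNA export. It was at 227, 222 and 252 CPM in si-NC and at 261, 277 and 267 CPM in si-SNHG17-1, higher in all 3 treated libraries, with a log2 fold change of 0.20 ± 0.07 (SE, edgeR adjusted p = 0.127). SRSF5, the other SR gene without overlap between groups, was at 210.4, 169 and 169 CPM in si-NC and at 162, 156 and 150.2 CPM in si-SNHG17-1 (-0.23 ± 0.10 SE, edgeR adjusted p = 0.199). Without si-NC replicate 1, its highest library, the log2 fold change was -0.12.

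SRSF1, the founding splicing activator of the family, was at 213, 288 and 284 CPM in si-NC and at 239.6, 198 and 249 CPM in si-SNHG17-1. Its groups overlapped, as si-NC replicate 1 stood below 2 of the treated libraries. SRSF6 and SRSF7 were likewise lowest in si-NC replicate 1 among the controls, at 275 against 362 and 330.0 CPM and at 149 against 198 and 219 CPM. SRSF4 was the most uneven SR gene after treatment, at 72.3, 137 and 84.0 CPM, with si-SNHG17-1 replicate 2 above all controls. The remaining SR genes SRSF2, SRSF8, SRSF9, SRSF10 and SRSF11 had log2 fold changes between -0.13 and 0.08, with standard errors of 0.10 to 0.12. SRSF2 shares 1106 exonic bases with MFSD11 and SRSF9 shares 1729 with GATC, both on the opposite strand, so their counts may be mixed in part. The same holds for SRSF1, which shares 1890 exonic bases with AC015813.2 on the same strand and 440 with AC015813.5 on the opposite strand. These 2 genes had 25 and 10059 counts over all 6 libraries. The summed SR level was 1886 ± 110 CPM in si-NC and 1787 ± 24.0 CPM in si-SNHG17-1, and the groups overlapped with each of the 3 scalings.

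TRA2A and TRA2B encode SR-like activators that bind GAA-rich exonic enhancers. TRA2B was at 147, 190.2 and 155 CPM in si-NC and at 191, 178 and 203 CPM in si-SNHG17-1, and the groups overlapped (0.22 ± 0.11 SE, edgeR adjusted p = 0.261). TRA2A had a log2 fold change of 0.04 ± 0.12 (SE, edgeR adjusted p = 0.851). U2AF1 and U2AF2 encode the heterodimer that recognises the 3′ splice site, and neither was called. U2AF2 was at 301, 285 and 322 CPM in si-NC and at 283, 314 and 284 CPM in si-SNHG17-1, with overlapping groups (-0.04 ± 0.08 SE, edgeR adjusted p = 0.778). U2AF1 was at 42.6 ± 1.499 and 47.4 ± 3.74 CPM, and its near-identical copy U2AF1L5 held 1470, 1425 and 1475 counts in si-NC and 1442, 1821 and 1235 after si-SNHG17-1, so reads of this gene may be split between both rows.

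The PTBP genes encode polypyrimidine tract binding proteins, which mostly repress exons. PTBP1 is the widespread form, PTBP2 is enriched in neurons, and PTBP1 is known to keep PTBP2 low by promoting skipping of an exon whose loss sends the PTBP2 transcript to decay. PTBP2 (ENSG00000117569.18) was at 32.0, 54.6 and 40.05 CPM in si-NC and at 26.2, 26.0 and 21.6 CPM in si-SNHG17-1. The treated libraries were all below the lowest control, and the controls were widely spread. The log2 fold change was -0.78 ± 0.20 (SE, edgeR adjusted p = 0.049), the largest among called members. Its call was lost with median-of-ratios scaling (0.0525), total counts (0.058), no filter (0.0754) and limma-voom (0.0581), and in each refit that omitted a library other than si-NC replicate 1 (edgeR adjusted p at most 0.174, reached when si-SNHG17-1 replicate 3 was omitted). PTBP1 was at 321, 356 and 379.5 CPM in si-NC and at 464, 475 and 369 CPM in si-SNHG17-1, where the third treated library fell among the controls (0.31 ± 0.11 SE, edgeR adjusted p = 0.127). PTBP3 was at 179.9, 223 and 184 CPM and at 165, 123 and 163 CPM (-0.38 ± 0.14 SE, edgeR adjusted p = 0.127).

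Because a ratio of counts inside a library does not depend on how libraries are scaled, genes were also set against each other in 6 pairs. These pairs were chosen after their values were seen, and the ratios were not tested. Each pair holds a member called in these same data. Ratios that lie apart therefore partly restate those calls and are a description only. PTBP2 counts were 0.0999, 0.153 and 0.106 of those of PTBP1 in si-NC and 0.0566, 0.0548 and 0.0585 after si-SNHG17-1. HNRNPA2B1 counts were 0.982, 0.992 and 0.939 of those of HNRNPA1 in si-NC and 0.654, 0.648 and 0.701 after si-SNHG17-1. HNRNPF counts were 2.19, 2.44 and 2.44 times those of HNRNPH1 in si-NC and 1.78, 1.58 and 1.51 times in si-SNHG17-1. HNRNPK counts were 1.28, 1.11 and 1.42 times those of HNRNPU in si-NC and 0.961, 1.15 and 0.892 times after si-SNHG17-1, and these groups overlapped. The groups were apart for the other 3 ratios given here, and the treated values of the PTBP ratio were closely spaced.

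**Figure D3:**
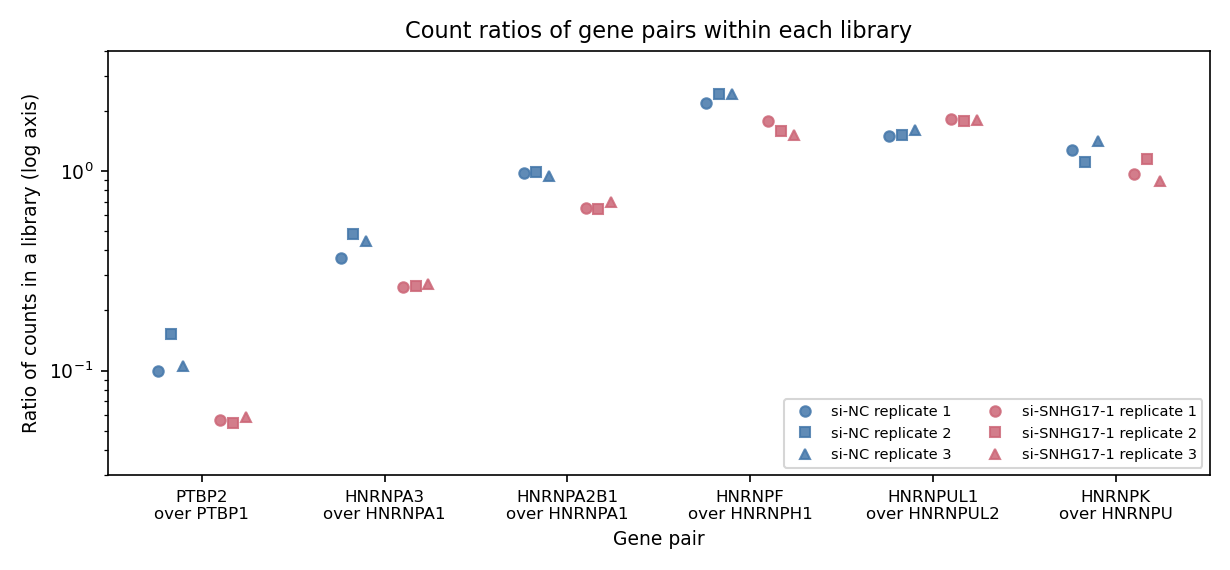
Ratio of the counts of 6 pairs of genes in each library (vertical log axis), with a different marker for each replicate number. Each pair holds a member called in these same data, and HNRNPUL2 shares 2391 exonic bases with HNRNPUL2-BSCL2 on the same strand. The groups overlap for HNRNPK over HNRNPU and not for the other 5 pairs, with HNRNPA3 over HNRNPA1 at 0.367 to 0.481 in si-NC and 0.263 to 0.270 in si-SNHG17-1, and HNRNPUL1 over HNRNPUL2 at no more than 1.61 and 1.78 to 1.82.

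None of the genes MBNL1, MBNL2, QKI, RBFOX2, ESRP1 and ESRP2, whose levels are known to differ between tissues, was called by edgeR. MBNL1 and MBNL2 encode muscleblind proteins, which bind YGCY motifs and control splicing during differentiation. MBNL1 was at 140.2, 168 and 129 CPM in si-NC and at 112, 118 and 73.1 CPM in si-SNHG17-1 (-0.53 ± 0.19 SE, edgeR adjusted p = 0.117). MBNL2 was at 82.1, 43.3 and 38.3 CPM in si-NC and at 31.0, 28.6 and 34.5 CPM in si-SNHG17-1 (-0.80 ± 0.28 SE, edgeR adjusted p = 0.113). Both were lower in all 3 treated libraries. They were called by DESeq2 (adjusted p = 0.0371 and 0.0137) but not by edgeR or limma-voom (limma-voom adjusted p = 0.105 and 0.147). Without si-NC replicate 1, the highest MBNL2 library, the log2 fold change of MBNL2 was -0.38, and without si-SNHG17-1 replicate 3, the lowest MBNL1 library, that of MBNL1 was -0.33.

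QKI encodes a STAR-family RNA-binding protein that also promotes circular RNA formation. It was at 40.2, 93.7 and 25.7 CPM in si-NC and at 64.6, 94.4 and 105.0 CPM in si-SNHG17-1, with si-NC replicate 2 inside the treated range (0.73 ± 0.44 SE, edgeR adjusted p = 0.341). Without si-NC replicate 2 the log2 fold change was 1.42 (edgeR adjusted p = 0.0354). RBFOX2, which binds UGCAUG was at 173, 179 and 168 CPM in si-NC and at 160.3, 156 and 151 CPM in si-SNHG17-1, lower in all 3 treated libraries by a small margin (-0.15 ± 0.07 SE, edgeR adjusted p = 0.193). ESRP1 and ESRP2 encode epithelial splicing regulators. ESRP2 was at 65.6, 56.8 and 64.3 CPM in si-NC and at 59.3, 53.95 and 59.6 CPM in si-SNHG17-1, with overlapping groups (edgeR adjusted p = 0.518). ESRP1 was nearly absent, at 0.381 ± 0.421 and 1.10 ± 0.135 CPM (edgeR adjusted p = 0.265).

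Per kilobase of merged exons the order of the members was different from that by CPM. HNRNPAB and HNRNPK were highest in si-NC, at 207 ± 1.84 and 206 ± 2.43 CPM per kilobase, and did not differ beyond their spread. HNRNPAB, an A/B-type protein that was not called, was at 444, 439.87 and 448 CPM in si-NC and at 461, 485 and 445 CPM in si-SNHG17-1. HNRNPF followed at 149 ± 9.55 and HNRNPA1 at 128 ± 8.03 CPM per kilobase. After si-SNHG17-1 the order behind HNRNPAB was HNRNPK at 159 ± 3.77, HNRNPA1 at 156 ± 1.66 and HNRNPF at 98.6 ± 3.77 CPM per kilobase, with HNRNPK and HNRNPA1 within their spread. SRSF1 at 78.3 ± 12.6 and SRSF6 at 70.2 ± 9.63 CPM per kilobase led the SR genes in si-NC and overlapped. U2AF2 stood at 73.6 ± 4.54, PTBP1 at 51.2 ± 4.30 and RBFOX2 at 17.3 ± 0.523 CPM per kilobase. TRA2B and TRA2A were at 13.9 ± 1.94 and 12.6 ± 0.683, MBNL1 at 14.6 ± 2.05, ESRP2 at 11.2 ± 0.851, QKI at 3.06 ± 2.06 and PTBP2 at 3.26 ± 0.886 CPM per kilobase. Merged exons of all annotated transcripts are longer than any single transcript, which lowers these levels most for genes with many isoforms.

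**Figure D4:**
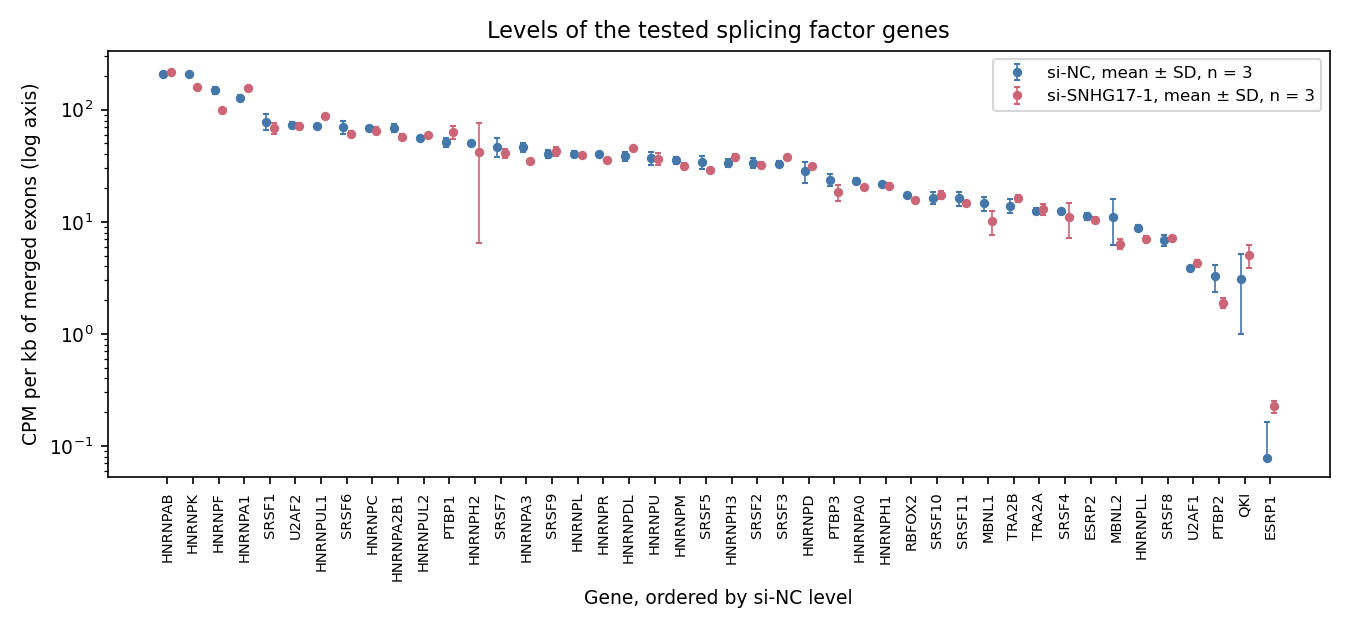
Mean level of each tested splicing factor gene in si-NC and si-SNHG17-1 (vertical log axis, CPM per kilobase of merged exons, ± SD, n = 3), ordered by the si-NC level. HNRNPAB and HNRNPK lead at 207 and 206, ESRP1 is last, and ESRP1 in si-NC has only an upper bar because its SD exceeds its mean.

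Other genes of the splicing pathway were counted from 7 lists with 158 genes, of which 155 rows were tested (MATR3 stands in 2 rows). Of these, 8 rose and 8 fell, 5.16% in each direction, close to the 5.25% and 5.21% of all genes tested. With total counts in place of TMM scaling, 13 were higher and 4 lower. The lists are described by these counts only.

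Proteins of the U1 and U2 snRNPs and the Sm ring held the most calls of the 7 lists, with 3 higher and 4 lower of 25. That is 12.0% and 16.0%, against 5.25% and 5.21% of all genes tested, a difference that was not tested. Their median log2 fold change was -0.09. SF3B2, a subunit of the SF3B complex that holds the branch point, was at 253, 249 and 236.5 CPM in si-NC and at 369.98, 392 and 368 CPM in si-SNHG17-1 (0.61 ± 0.06 SE, edgeR adjusted p = 0.00264). Its partner SF3B3 went the other way, from 378 ± 22.6 to 289.5 ± 11.0 CPM (-0.39 ± 0.07 SE, edgeR adjusted p = 0.0169). PHF5A, a small subunit of the same complex, rose by 0.57 ± 0.09, and DHX15, a helicase that takes spliceosomes apart, fell by 0.49 ± 0.08 on the log2 scale. SNRPN, which shares exons with SNURF, was also higher, and SNRPA1 and SNRPC were lower. SF3B2 stayed called in 6 of 6 refits that omitted 1 library, PHF5A, DHX15 and SF3B3 in 4, SNRPA1 in 1, and SNRPN and SNRPC in 0.

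In the tri-snRNP, Prp19 and catalytic-step list, 2 rose and 1 fell of 37. That is 5.41% and 2.7%, against 5.25% and 5.21% of all genes tested. PLRG1, a core protein of the Prp19 complex, went from 66.9 ± 5.56 to 38.3 ± 1.97 CPM (-0.80 ± 0.10 SE, edgeR adjusted p = 0.00437) and kept its call whichever library was left out. SART1, a tri-snRNP protein, and LSM6, a subunit of the ring on U6 RNA, rose by 0.41 ± 0.08 and 0.75 ± 0.19, but each stayed called in 1 of 6 such refits (edgeR adjusted p up to 0.0874 and 0.142). Of 21 SR-related proteins 2 rose and 2 fell, 9.52% in each direction. BCLAF1 rose from 84.6 ± 2.76 to 138 ± 24.3 CPM, and LUC7L2, a U1-associated protein, by 0.36 ± 0.08. The splicing coactivator SRRM1 fell by 0.31 ± 0.08 and RSRP1 by 0.81 ± 0.21. BCLAF1 stayed called in 3 of 6 such refits, and LUC7L2, SRRM1 and RSRP1 each in 1. LUC7L2 shares 1377 exonic bases with the read-through gene C7orf55-LUC7L2, and RSRP1 shares exons with TMEM50A.

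Among other RNA-binding regulators 1 of 39 rose and 1 fell, 2.56% in each direction, against 5.25% and 5.21% of all genes tested. PCBP1, a poly(C)-binding KH-domain protein related to HNRNPK, was at 518, 503 and 535 CPM in si-NC and at 332, 354 and 344 CPM in si-SNHG17-1. The groups were far apart (-0.60 ± 0.06 SE, edgeR adjusted p = 0.00244), and the call held whichever library was left out. PCBP1 shares 914 exonic bases with PCBP1-AS1 on the opposite strand, which was at 58.8 ± 2.74 and 72.7 ± 61.6 CPM. RBM10, a regulator of exon skipping, went from 108 ± 2.35 to 139 ± 7.08 CPM but was not called in any of the 6 such refits (edgeR adjusted p at most 0.0978). It shares 636 exonic bases with NDUFB11.

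No gene was called by edgeR among 8 minor spliceosome proteins, 10 SR protein kinases and the SR import receptor, or 15 proteins of the exon junction complex and of nonsense-mediated decay. Of all genes tested, edgeR called 10.5%. At an unadjusted p under 0.05 (edgeR) there were 2, 1 and 4 genes in these lists, against 4997 of all 18679 genes tested. DESeq2 called 1, 0 and 2, against 1424 higher and 1395 lower among all genes. It used its own filter on a different set of genes, so no share is given for it. With limma-voom none was called, against 1021 higher and 1005 lower among the 18679 genes tested. SRPK1, a kinase of SR proteins and the most abundant of its list by CPM, was at 216 ± 14.6 and 211 ± 12.5 CPM, with a log2 fold change of -0.03 ± 0.08. ZCRB1, of the minor spliceosome, was at 116 ± 10.9 and 116 ± 5.79 CPM. SMG1, the kinase that phosphorylates the decay factor UPF1, was at 255, 225 and 174 CPM in si-NC and at 182, 169 and 175 CPM in si-SNHG17-1, with overlapping groups (-0.32 ± 0.13 SE, edgeR adjusted p = 0.183). Its log2 fold change was -0.46 without si-NC replicate 3, where it was called (edgeR adjusted p = 0.0351), and -0.19 without si-NC replicate 1.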

How the data were processed

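The authors deposited 1 table with a raw count for each gene and library. HISAT2 and GRCh38 are named per the submitters' processing notes. The counter, the annotation release and any strand setting are not stated in the labels. Gene types, merged exons and 3′ UTRs came from GENCODE release 29, which held all 49 members.

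Groups came from the sample titles. Genes kept by filterByExpr (minimum count 10, minimum total 15) were scaled with TMM and compared with edgeR 4.0.16 in R 4.3.3 by the quasi-likelihood F test on group alone. P-values were adjusted by Benjamini-Hochberg over the 18679 genes, with calls at 0.05. The SE of a gene is its log2 fold change, without sign, divided by the root of F. Levels in CPM used TMM-scaled library sizes, and those of cell markers used total counts. A floor of 3 counts was 0.0712 to 0.0977 CPM. No library was left out or imputed. The fit was tested on simulated data.

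Members and lists were chosen with earlier results of these data known. Values in every library are given for SNHG17, called members and the most abundant member per kilobase of each family. From each list up to 2 called genes per direction with the smallest adjusted p are named, or the most abundant where none was called. HNRNPA2B1, HNRNPH2, SRSF3 to SRSF7, PTBP3, MBNL2, SNRPN, SNRPA1, SNRPC and the genes sharing exons or sequence with members are described beyond this rule, chosen after their values were seen. Alternatives were median-of-ratios factors, total counts, no filter, 1 CPM in at least 3 libraries, DESeq2 1.42.0, limma-voom (limma 3.58.1), a replicate block and each library omitted.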

Additional observations from a re-analysis of the deposited data

How the results depend on the processing

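Of 571 alternative values for the 44 tested members, 524 kept their direction and side of the threshold, 29 lost a call, 3 gained one and 15 changed sign, the last all in genes that were not called. HNRNPF, HNRNPK and SNHG17 kept their calls in every alternative run. Omitting 1 library gave 313 to 694 genes higher and 264 to 705 lower among all genes, 0 to 2 members higher and 2 to 4 lower, and 1 to 7 pathway genes higher and 2 to 6 lower. The counts were highest without si-NC replicate 1, except for pathway genes lower. With no filter beyond a total above 0, 627 of all genes were lower, 1 member, HNRNPUL1, was higher and 4 pathway genes were lower. With total counts, 13 pathway genes were higher and 4 lower.

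Replicate numbers did not pair the libraries, as the deviations of same-numbered libraries correlated at -0.0172, -0.0367 and -0.0153. With the replicate number as a block, 273 of all genes were higher and 259 lower, 0 members were higher and 2 lower (HNRNPF and HNRNPK, edgeR adjusted p = 0.0381 and 0.0487), and 2 pathway genes were higher and 2 lower.

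Changes of sign were small apart from HNRNPH2. With total counts the log2 fold change was 0.0245 for HNRNPL, 0.0115 for HNRNPU, 0.0372 for ZCRB1 and 0.0097 for SRPK1. ZCRB1 was at 0.0010 with no filter and 0.0083 with a minimum of 1 CPM. Omitting 1 library, the log2 fold change ranged from -0.0852 to 0.0033 for U2AF2, -0.0666 to 0.0184 for HNRNPL, -0.494 to 0.0062 for SRSF4, -0.75 to 0.301 for HNRNPH2, -0.114 to 0.0798 for HNRNPU, -0.13 to 0.015 for SRSF2, -0.0459 to 0.132 for TRA2A, -0.083 to 0.0103 for HNRNPH1, -0.0145 to 0.175 for SRSF10, -0.0202 to 0.134 for SRSF8, -0.0651 to 0.0705 for ZCRB1 and -0.063 to 0.0261 for SRPK1. The cause was not tested. SRSF12 and the HNRNPCL genes lie under the floor of 3 counts in every library, where depth limits any comparison, and ESRP1 had 3 to 46 counts per library.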

Other observations

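Some splicing factor genes share exonic bases with a called gene on the opposite strand. No difference within a pair was tested. MBNL1-AS1, which shares 1140 exonic bases with MBNL1, rose with a log2 fold change of 0.66 ± 0.11 (SE, edgeR adjusted p = 0.0137, called in 3 of 6 refits that omitted 1 library), while MBNL1 was at -0.53 ± 0.19 (0.117). COX20, an assembly factor of cytochrome c oxidase that shares 3502 exonic bases with HNRNPU, fell by 0.66 ± 0.11 (edgeR adjusted p = 0.011, called in 4 of 6), while HNRNPU was at -0.03 ± 0.12. CBX3, a heterochromatin protein whose exons overlap those of HNRNPA2B1 by 368 bases, fell by 0.33 ± 0.08 (edgeR adjusted p = 0.0485, called in 0 of 6), beside -0.26 ± 0.08 for HNRNPA2B1. Whether reads of these pairs were mixed was not tested.

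Of the 75 pseudogene rows named after HNRNPA1, 2 are given here, chosen after their values were seen. Neither was called, and neither was tested against the parent gene. HNRNPA1P7, the most counted of them, was at 2181, 2031 and 2483 counts in si-NC and at 2793, 3040 and 2536 in si-SNHG17-1 (0.43 ± 0.12 SE, edgeR adjusted p = 0.0568). Scaled for depth, it was at 57.9, 48.6 and 62.6 CPM in si-NC and at 73.1, 72.2 and 82.6 CPM in si-SNHG17-1, without overlap. HNRNPA1P33 went the other way, at 79, 82 and 79 counts in si-NC and at 39, 49 and 30 in si-SNHG17-1 (-0.93 ± 0.26 SE, edgeR adjusted p = 0.0615).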
